A study of Mus musculus with 28 samples.

Results

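The cells described here are donor-derived leptomeningeal macrophages, the marrow-born cells that settle in the thin membranes on the brain surface after transplantation, compared between mutant and control marrow. They were chosen by their labels as the 4 mutant and 4 control libraries of GFP-negative leptomeningeal cells, 8 of the 28 libraries of the series, and all 14617 genes of the table were considered. Mutant chimeras received Vav-Cre: hDNMT3A fl/fl marrow and control chimeras received hDNMT3A fl/fl marrow without Cre. The Cre transgene and the recombined allele thus occur only together, and their effects cannot be told apart here. Genotype below means both. All recipients were lethally irradiated Cx3cr1 gfp/+ mice, and cells were taken 16 weeks after transplantation. GFP-negative cells are called donor and GFP-positive cells host. GFP reports Cx3cr1 in these mice, so a host cell that does not express Cx3cr1 would also be GFP-negative. Vav-Cre is active throughout the blood-forming system, so every blood lineage of the mutant donor can carry the recombined allele. The remaining libraries are donor microglia and host microglia (4 mutant and 4 control each) and host leptomeningeal cells (2 mutant and 2 control). Cells were sorted in bulk after enzymatic digestion in the presence of actinomycin D, and RNA was counted at its 3′ end with MARS-seq, in which a unique molecular identifier (UMI) marks each captured molecule. The labels do not state whether libraries came from separate animals, so the p-values measure the spread between libraries.

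DNMT3A is a de novo DNA methyltransferase that places methyl groups on CG dinucleotides, and its mutation in blood stem cells is a common cause of clonal haematopoiesis, the expansion of a mutant blood clone. Leptomeningeal macrophages belong to the border-associated macrophages, which scavenge and present antigen at the surface of the brain and express the mannose receptor Mrc1, the chemokine Pf4 and the scavenger receptor Stab1. After irradiation their niche can be refilled from marrow by way of monocytes.

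The mutant libraries held 2187777, 1631558, 2080443 and 2868575 UMIs, and the control libraries 2270716, 3066506, 2159314 and 2710591. Levels are given as CPM, UMIs per 1e+06 UMIs of the TMM-scaled library, and in these 8 libraries the level of 3 UMIs lay between 1.15 and 2.06 CPM. Border macrophage genes were present in every library, with Mrc1 at 544 ± 90.1 CPM in mutant and 554 ± 103 CPM in control cells, Pf4 at 1593 ± 283 and 1483 ± 360 CPM, and Stab1 at 1791 ± 299 and 1674 ± 299 CPM (SD, n = 4 each). The summed border macrophage list took 0.702% to 1.05% of UMIs in mutant and 0.628% to 0.939% in control donor cells, below the 2.16% to 2.43% of mutant and 1.76% to 2.08% of control host leptomeningeal cells. Genes typical of other marrow cells were also present in the donor libraries. Neutrophil genes took 3.78% to 8.72% of UMIs in mutant and 5.76% to 10.1% in control libraries, against 0.345% to 0.491% in mutant and 0.215% to 0.625% in control host leptomeningeal cells, and S100a9 (2.33% of UMIs over the 8 libraries) was second only to Apoe (3.38%). The part of the GFP sort in this difference between donor and host libraries was not tested. In bulk samples such as these, fewer cells of a type and less RNA per cell cannot be told apart. Dnmt3a itself measured 31.0, 17.9, 33.9 and 38.2 CPM in mutant libraries 1 to 4 and 34.7, 25.7, 27.7 and 32.6 CPM in control libraries, and the groups overlapped (log2 fold 0.04 ± 0.17, edgeR quasi-likelihood test, adjusted p = 1). The donor allele is a human DNMT3A sequence, so this count of mouse Dnmt3a does not check the recombination.

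Of 12327 genes tested, 6 (0.0487%) differed between mutant and control donor leptomeningeal cells at a Benjamini-Hochberg adjusted p under 0.05 in edgeR's quasi-likelihood test. Commd10, Spint1, Eps8l1 and Slc15a2 (0.0324% of genes tested) rose in mutant cells, and Apobec3 and Gatm (0.0162%) fell. The 4 that rose differed by about 1.94 to 2.89 on the log2 scale, and the 2 that fell by -0.66 and -0.63. Without the adjustment, 597 genes (4.84%) had a p under 0.05, of which 259 were higher (2.1%) and 338 lower (2.74%) in mutant cells, and the median fold of all genes was -0.03.

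**Figure D1:**
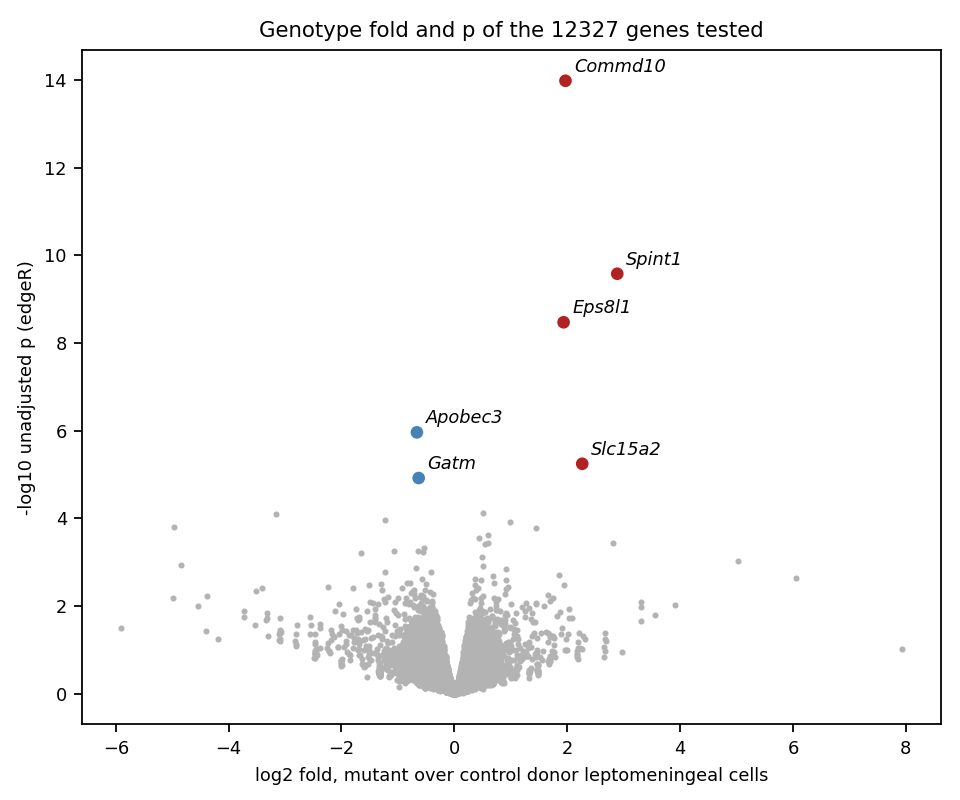
Log2 fold of mutant over control donor leptomeningeal cells (horizontal axis) against the -log10 of the unadjusted edgeR p (vertical axis) for the 12327 genes tested, 1 point per gene. The 4 red genes rose and the 2 blue genes fell at an adjusted p under 0.05, and Commd10 has the smallest p.

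Commd10 encodes a COMM domain protein of the Commander complex, which returns membrane proteins from endosomes to the cell surface (mm10 chromosome 18, 46958816 to 47234284, plus strand). It measured 77.9, 84.2, 55.1 and 61.6 CPM in mutant libraries 1 to 4, against 14.3, 18.8, 17.8 and 19.4 CPM in control libraries. Every mutant library lay above every control library. The means were 69.7 ± 13.6 CPM in mutant and 17.5 ± 2.29 CPM in control cells (SD, n = 4 each), a log2 fold of 1.97 ± 0.18 (SE, edgeR, adjusted p = 1.27e-10), from 96 to 147 UMIs per mutant and 28 to 49 per control library. The place of the Cre transgene in the genome was not determined here, and its part in the Commd10 level was not tested. Of 20 tested genes of the Commd family and its partners, Commd10 was the only member that passed, and the median fold of the list was 0.06. Commd4, another family member, measured 128 ± 5.02 CPM in mutant and 114 ± 20.2 CPM in control cells, and Commd2 23.4 ± 3.43 and 28.1 ± 5.34 CPM (unadjusted p = 0.154 and 0.166 in edgeR).

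Spint1 encodes HAI-1, a membrane-bound Kunitz-type inhibitor of serine proteases such as matriptase and the activator of hepatocyte growth factor (mm10 chromosome 2, 119237362 to 119249527, plus strand). It measured 13.1, 8.28, 12.1 and 14.7 CPM in mutant libraries, against 4.08, 0.767, 1.66 and 0.412 CPM in control libraries. The groups did not overlap, and the gene was near the limit of detection in control cells, where the libraries held 8, 2, 3 and 1 UMIs against 24, 12, 21 and 35 in mutant libraries. The log2 fold was 2.89 ± 0.36 (edgeR, adjusted p = 1.61e-06), with means of 12 ± 2.72 CPM in mutant and 1.73 ± 1.65 CPM in control cells (SD, n = 4 each). Leaving out each library gave folds of 2.54 to 3.70, the highest without control library 1, which held 8 of the control UMIs (adjusted p = 4.22e-08). Spint1 was the only one of 12 tested Kunitz inhibitors and target proteases to pass. Its relative Spint2 measured 6.84 ± 2.00 CPM in mutant and 5.07 ± 1.61 CPM in control cells (unadjusted p = 0.251), and Tfpi, the inhibitor of the tissue factor pathway, 9.31 ± 1.78 and 5.56 ± 1.77 CPM (unadjusted p = 0.0391, adjusted p = 1 in edgeR).

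Eps8l1 encodes a relative of EPS8, an adaptor that links receptor tyrosine kinase signalling to actin (mm10 chromosome 7, 4460674 to 4480487, plus strand). It measured 19.1, 19.3, 28.1 and 29.3 CPM in mutant libraries, against 9.17, 4.99, 5.55 and 5.77 CPM in control libraries. The lowest mutant library was above the highest control library. The log2 fold was 1.94 ± 0.26 (edgeR, adjusted p = 1.38e-05), from 28 to 70 UMIs per mutant and 10 to 18 per control library. Of 22 tested Eps8 family and actin partner genes no other passed, and the list's median was -0.04. Rac2, a small GTPase of blood cells, measured 71.4 ± 15.4 CPM in mutant and 94.4 ± 24.5 CPM in control cells (unadjusted p = 0.0167, adjusted p = 1 in edgeR).

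Slc15a2 encodes PEPT2, a proton-coupled transporter of di- and tripeptides that also carries bacterial muramyl peptides to cytosolic NOD receptors (mm10 chromosome 16, 36750177 to 36784962, minus strand). It measured 27.8, 35.2, 32.7 and 33.5 CPM in mutant libraries, against 6.12, 4.60, 9.43 and 7.01 CPM in control libraries. The mutant libraries lay close together and far above all 4 controls. The log2 fold was 2.27 ± 0.39 (edgeR, adjusted p = 0.0140), and its call was lost in 4 of the 8 fits that left out a library, with adjusted p of 0.0625 to 0.117 there. The 8 libraries fitted alone gave 2.29 ± 0.21 (edgeR, adjusted p = 9.20e-06). Without mutant 2 and control 2 together the adjusted p was 0.325 in edgeR. Among 15 tested genes of the Slc15 family and of NOD sensing only Slc15a2 passed. Slc15a3, a lysosomal relative, measured 227 ± 11.8 CPM in mutant and 209 ± 31.4 CPM in control cells, and the sensor Nod1 14.7 ± 5.29 and 20.8 ± 5.06 CPM (unadjusted p = 0.306 and 0.0538 in edgeR).

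Apobec3 encodes a cytidine deaminase that restricts retroviruses (mm10 chromosome 15, 79891659 to 79915906, plus strand). It measured 118, 119, 104 and 109 CPM in mutant libraries, against 179, 177, 178 and 179 CPM in control libraries. The control libraries were nearly equal and all above the mutant ones. The log2 fold was -0.66 ± 0.12 (edgeR, adjusted p = 0.00335). No other of 19 tested Apobec and retrovirus restriction genes passed: Samhd1, which limits nucleotides for reverse transcription, measured 491 ± 43.4 CPM in mutant and 560 ± 30.6 CPM in control cells (unadjusted p = 0.0857).

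Gatm encodes the mitochondrial amidinotransferase that makes guanidinoacetate, the precursor of creatine, from arginine and glycine (mm10 chromosome 2, 122594467 to 122611303, minus strand). It measured 144, 154, 106 and 132 CPM in mutant libraries, against 221, 182, 189 and 238 CPM in control libraries. The groups did not overlap, with mutant library 2 closest to control library 2. The log2 fold was -0.63 ± 0.13 (edgeR, adjusted p = 0.0246), and the call was lost when the 8 libraries were fitted alone (adjusted p = 0.119) and in 5 of the 8 fits that left out a library (0.0719 to 0.292). Of 16 tested genes of creatine and arginine metabolism no other passed. Ckmt1, a mitochondrial creatine kinase, held too few molecules for a firm value, at 0.699 ± 0.703 CPM in mutant and 2.79 ± 1.58 CPM in control cells (unadjusted p = 0.0207).

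**Figure D2:**
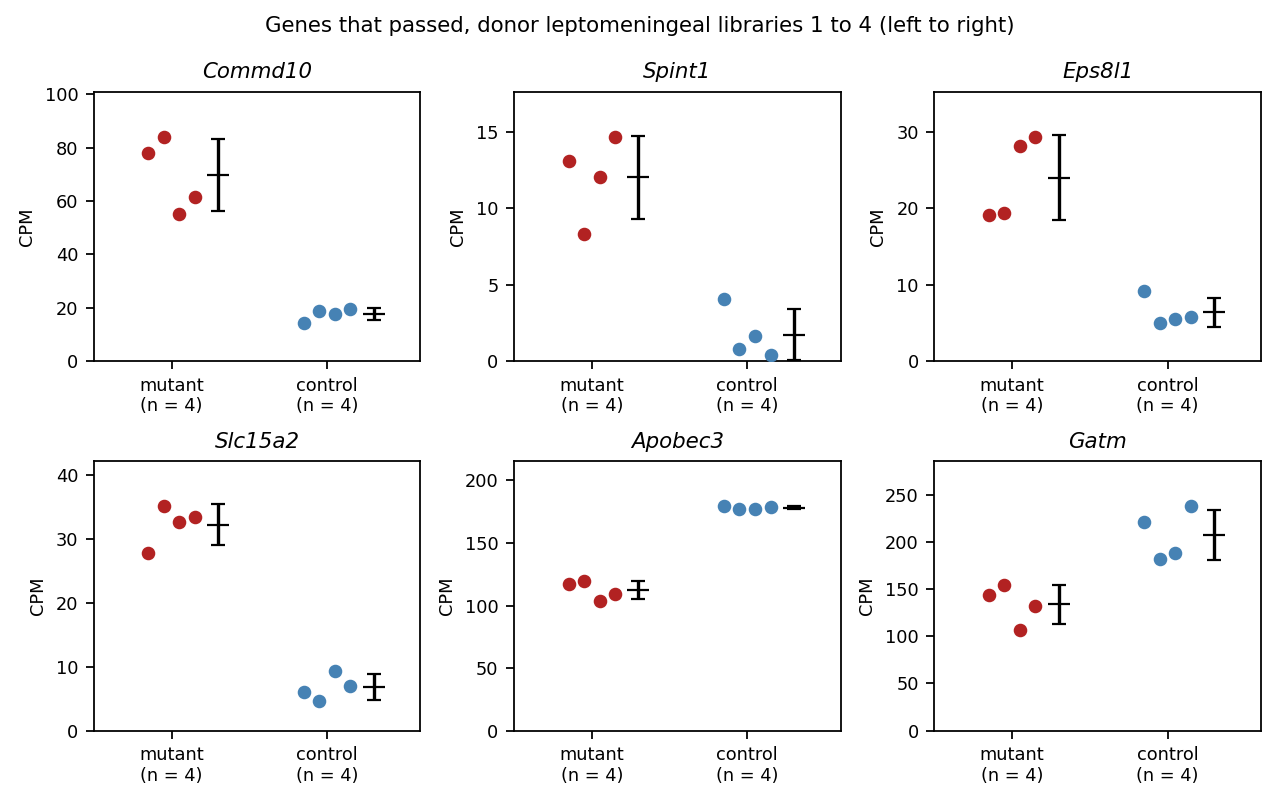
CPM of the 6 genes that passed in each mutant (red, left) and control (blue, right) donor leptomeningeal library, with the mean and SD in black (n = 4 each, axes start at 0). Mutant and control points do not overlap in any panel.

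Since DNMT3A acts on CG dinucleotides, the stretch before the start of the genes is shown with each CG in capitals. DNA methylation was not measured in these libraries. Sequences are from RefSeq on GRCm38, in the direction of transcription, and bases inside annotated exons were left out. The first is for Spint1 (chr2:119237110-119237359, plus strand), the second for Eps8l1 (chr7:4460447-4460673, plus), the third for Slc15a2 (chr16:36784963-36785212, minus), the fourth for Gatm (chr2:122611304-122611527, minus) and the fifth for the downstream of the starts listed for Apobec3 (chr15:79894773-79895022, plus).
Spint1: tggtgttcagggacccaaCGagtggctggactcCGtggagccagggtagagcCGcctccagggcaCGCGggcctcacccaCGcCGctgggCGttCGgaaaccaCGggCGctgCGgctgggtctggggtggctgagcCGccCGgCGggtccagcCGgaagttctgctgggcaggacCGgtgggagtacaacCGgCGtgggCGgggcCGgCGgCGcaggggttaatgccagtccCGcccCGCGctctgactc
Eps8l1: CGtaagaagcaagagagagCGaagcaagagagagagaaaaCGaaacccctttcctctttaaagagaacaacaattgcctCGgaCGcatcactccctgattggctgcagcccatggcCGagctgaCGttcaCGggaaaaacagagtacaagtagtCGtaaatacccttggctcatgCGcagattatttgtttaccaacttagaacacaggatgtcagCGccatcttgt
Slc15a2: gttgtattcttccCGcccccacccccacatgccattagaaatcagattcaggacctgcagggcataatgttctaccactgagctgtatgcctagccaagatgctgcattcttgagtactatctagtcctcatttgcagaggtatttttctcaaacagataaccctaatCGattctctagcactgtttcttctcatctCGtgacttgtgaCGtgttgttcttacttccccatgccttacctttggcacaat
Gatm: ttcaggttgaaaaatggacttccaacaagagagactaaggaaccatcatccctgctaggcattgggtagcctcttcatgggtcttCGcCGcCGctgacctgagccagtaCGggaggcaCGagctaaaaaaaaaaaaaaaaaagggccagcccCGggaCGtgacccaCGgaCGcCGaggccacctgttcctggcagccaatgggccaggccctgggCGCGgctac
Apobec3: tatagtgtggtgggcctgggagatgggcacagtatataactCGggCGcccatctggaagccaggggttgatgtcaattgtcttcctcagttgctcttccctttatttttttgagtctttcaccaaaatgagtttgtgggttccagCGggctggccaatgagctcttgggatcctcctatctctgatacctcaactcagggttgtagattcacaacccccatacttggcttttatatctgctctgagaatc

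The window before Commd10 was not analysed here. Within 250 bases before the start, Spint1 held 26 CG dinucleotides, a number reached by 9.59% of the 32851 mouse promoters listed, whereas Slc15a2 held 4, and 44.4% of promoters held as many or fewer. Eps8l1 held 14 at the start shown (reached by 29.4%), 11 of them in the printed stretch, and 7 and 3 at its other starts (reached by 46.3% and 71%). Of the genes that fell, Gatm held 17 (reached by 23.5%), 12 of them in the printed stretch. Apobec3 held 3 at the start shown (as many or fewer in 37.8%) and 12 at its other start, whose window lies wholly inside annotated exons and is not printed. The median over all promoters was 6.

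The 6 genes lie on 5 chromosomes, and none of the tested genes starting within 1 Mb of any of them passed. An unadjusted p under 0.05 was found for 0 of 9 neighbours of Commd10, 2 of 32 of Spint1, 2 of 46 of Eps8l1, 0 of 16 of Slc15a2, 3 of 40 of Apobec3 and 2 of 15 of Gatm, beside 4.84% of all genes. Spint1 and Gatm share chromosome 2 with starts 3373941 bases apart, and 0 of the 53 tested genes between them passed, while 6 (11.3%) had an unadjusted p under 0.05, 3 higher and 3 lower.

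The 6 genes were next followed in the other populations. Donor microglia, which come from the same kind of marrow but reside in the parenchyma, showed Commd10 at 75.5 to 95.7 CPM in mutant and 13.5 to 37.3 CPM in control libraries (log2 fold 1.93 ± 0.22, adjusted p = 2.62e-07 in edgeR), where 11 of 12327 genes (0.0892%) passed, 7 higher (0.0568%) and 4 lower (0.0324%). Spint1 (2.63 ± 0.28, adjusted p = 2.38e-08), Apobec3 (-0.74 ± 0.13, adjusted p = 0.00443) and Gatm (-0.63 ± 0.13, adjusted p = 0.0207) also passed there, while Eps8l1 (1.28 ± 0.33, adjusted p = 0.144) and Slc15a2 (2.19 ± 0.66, adjusted p = 0.215) did not. The mutant and control libraries of these 2 genes did not overlap, but the share of all genes without overlap in donor microglia was not counted. Eps8l1 measured 26.8 to 36.1 against 9.79 to 16.6 CPM, and Slc15a2 14.5 to 25.8 against 0 to 11.3 CPM, the latter from 0 to 27 UMIs. The closest Slc15a2 libraries held 7 UMIs (mutant 4) and 8 UMIs (control 2), so their order rests on the scaling. The test of the difference itself, the genotype fold in leptomeningeal minus that in microglial donor cells, called 0 of 12327 genes (0%) in edgeR, with 787 at an unadjusted p under 0.05, 2 called by DESeq2 and 1 by limma voom. Without control donor microglia library 2 the count was 149, so it depends on that library. The difference was 0.66 ± 0.45 for Eps8l1, 0.25 ± 0.45 for Spint1, 0.08 ± 0.93 for Slc15a2, 0.03 ± 0.29 for Commd10, 0.07 ± 0.18 for Apobec3 and -0.004 ± 0.17 for Gatm. Levels did differ between the compartments: Gatm measured 330 to 390 CPM in mutant and 536 to 616 CPM in control donor microglia, above every donor leptomeningeal library. Astrocyte, neuron and oligodendrocyte genes took 2.70% to 3.95% of UMIs in mutant and 1.81% to 3.67% in control donor microglia. In donor leptomeningeal libraries they took 0.0387% to 0.0691% and 0.0379% to 0.0854%. The part of such RNA in the Gatm levels was not tested.

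Host leptomeningeal cells carry neither donor allele, and 0 genes (0%) passed between mutant and control chimeras there in edgeR, with 666 at an unadjusted p under 0.05. Spint1 measured 17.5 and 26.8 CPM in mutant and 37.0 and 49.3 CPM in control host leptomeningeal libraries (log2 fold -1.03 ± 0.30, adjusted p = 0.372). Homeostatic microglia genes took 3.44% to 4.04% of UMIs in mutant and 4.63% to 5.66% in control host leptomeningeal libraries. The part of microglial RNA in the host fold of Spint1 was not tested. The difference between the donor and the host fold of Spint1 was 3.91 ± 0.47 (adjusted p = 1.75e-06), and edgeR called Spint1 alone in that test (0.00811% of 12327). DESeq2 called 5 genes, limma voom 2 and edgeR on these groups alone 2. Leaving out a library gave 1 to 5 (5 without control host library 1, 3 without control donor library 1, 2 without mutant host library 1). Without control donor library 1 the Spint1 difference was 4.72 ± 0.50. The same difference was 1.49 ± 0.35 for Commd10 (adjusted p = 0.205), 1.49 ± 0.43 for Eps8l1 (0.572), 1.81 ± 0.60 for Slc15a2 (0.878), -0.62 ± 0.21 for Apobec3 (0.815) and -0.16 ± 0.24 for Gatm (1), all by edgeR with 2 host libraries per genotype. In host microglia the 6 folds lay between -0.36 and 0.35, and none was among the 8 genes that passed there (0.0649%, 7 higher, 0.0568%, and 1 lower, 0.00811%).

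The order of the levels differed by gene. Spint1 was highest in host microglia (229 to 279 CPM in mutant and 226 to 268 CPM in control chimeras), and control donor leptomeningeal cells were lowest. Slc15a2 was highest in host leptomeningeal cells (69.2 and 89.0 CPM in mutant, 57.0 and 59.5 CPM in control chimeras), so mutant donor cells lay between those and control donor cells. Eps8l1 measured 33.7 and 43.4 CPM in mutant and 20.2 and 33.9 CPM in control host leptomeningeal cells, a range that overlapped mutant donor cells. Commd10 in mutant donor cells of the leptomeninges (55.1 to 84.2 CPM) and of the parenchyma exceeded all host libraries, of which the highest was at 47.3 CPM. Apobec3 in both mutant donor populations (104 to 119 CPM in leptomeningeal cells, 102 to 144 CPM in microglia) lay below all libraries of the 6 other groups, of which the lowest was at 155 CPM.

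**Figure D3:**
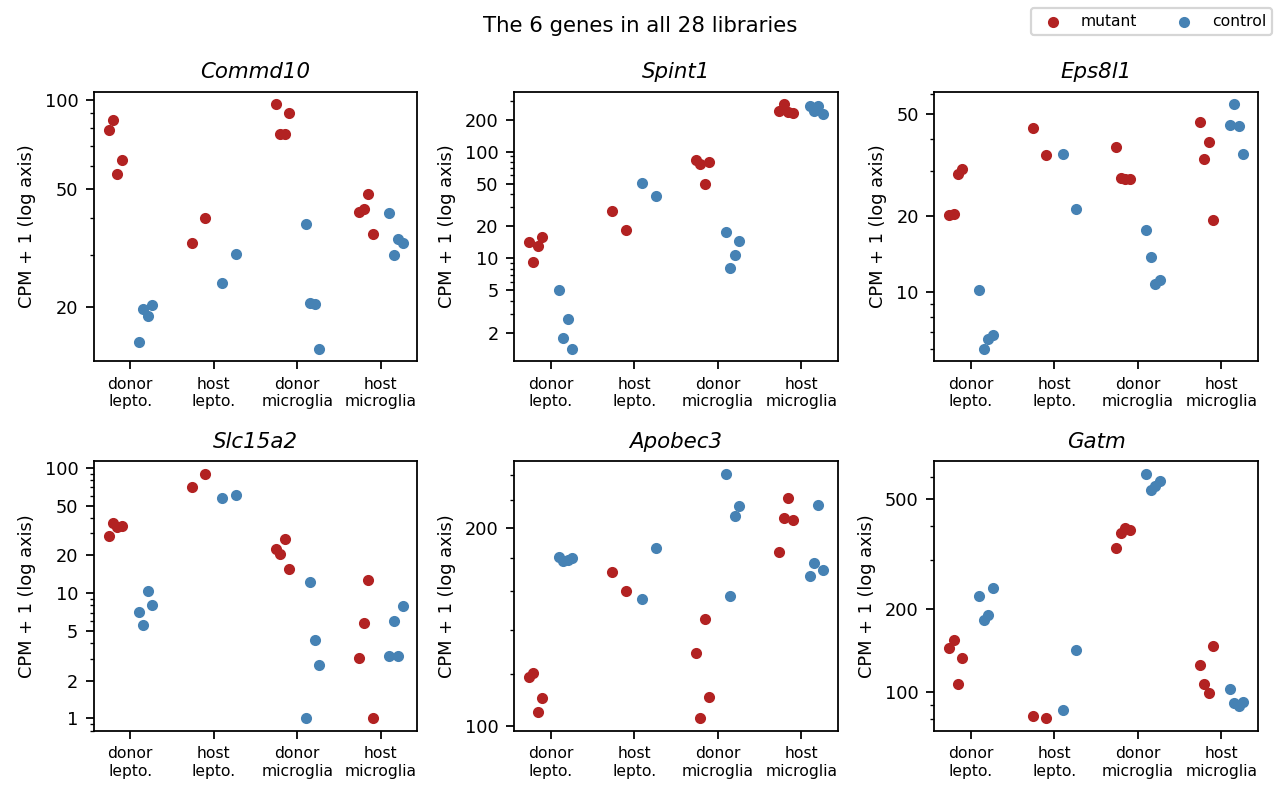
Level of the 6 genes in all 28 libraries, as CPM + 1 on a log axis, with mutant (red) left of control (blue) in each of the 4 populations (lepto. is leptomeningeal). Mutant and control donor cells separate for all 6 genes in both compartments. Host Spint1 is lower in mutant than in control leptomeningeal cells, with 2 libraries each.

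Genes that did not pass are given as values. The non-passing genes with the smallest p, a mean of at least 10 CPM and libraries that did not overlap included H2-Q6, a class I histocompatibility gene, at 277 ± 38.8 CPM in mutant and 194 ± 12 CPM in control cells (adjusted p = 0.121). Hsph1, a heat shock protein, measured 47.4 ± 11.9 and 23.8 ± 6.40 CPM (adjusted p = 0.152), and the histone gene H2aj 529 ± 41.7 and 392 ± 27.4 CPM (adjusted p = 0.241, edgeR throughout). H2-Q6 has near-identical paralogs whose reads may be shared, so its count is uncertain. On the lower side were Me2, a mitochondrial malic enzyme (41.4 ± 6.29 CPM in mutant, 64.6 ± 15.0 CPM in control cells, adjusted p = 0.339), Nnt, the mitochondrial transhydrogenase (31.2 ± 3.86 and 46.2 ± 2.85 CPM, 0.339), and Hpgd, which degrades prostaglandins (95.0 ± 15.1 and 126 ± 10.8 CPM, 0.693). Libraries did not overlap for 206 genes that were higher (1.67%) and 215 that were lower (1.74%) in mutant cells, 421 in all (3.42%).

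Ribosomal protein genes, the structural parts of the cytosolic ribosome, lay mostly above 0: 81 of 84 had a positive fold, beside 5523 of all 12327 genes, and their median was 0.18. None passed, and 21 had an unadjusted p under 0.05, all higher, beside 2.1% of all genes that were higher at that threshold. The list took 14.9%, 15.3%, 13.5% and 13.8% of UMIs in mutant libraries 1 to 4 and 12.8%, 12.1%, 13.4% and 12.5% in control libraries, with every mutant library above every control library. The gap was narrow, at 13.52% in mutant 3 and 13.42% in control 3. Within each genotype the ribosomal share was lowest where neutrophil UMIs were most, in mutant 3 (8.72%) and control 2 (10.1%). The part of neutrophil RNA in the ribosomal values was not tested. Rpl5 measured 661 ± 86.7 CPM in mutant and 510 ± 27.7 CPM in control cells (adjusted p = 0.910), and Rpl29 had an adjusted p of 0.857 in edgeR.

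Cell cycle genes lay on the other side, with 0 of 42 above 0, a median of -0.40 and 9 at an unadjusted p under 0.05, all lower, and none passed. Of all genes tested, 2.74% were lower at that threshold. Rrm1, a subunit of ribonucleotide reductase, measured 34.4 ± 12.8 CPM in mutant and 50.4 ± 15.5 CPM in control cells, and the proliferation marker Mki67 79.0 ± 38.2 and 115 ± 50.6 CPM (unadjusted p = 0.00976 and 0.108 in edgeR). The list took 0.145%, 0.118%, 0.214% and 0.149% of UMIs in mutant libraries 1 to 4 and 0.139%, 0.271%, 0.185% and 0.213% in control libraries, so the groups overlapped. Within each genotype the library with the most cell cycle UMIs, mutant 3 and control 2, was also the one with the most neutrophil UMIs (8.72% and 10.1%) and the most monocyte UMIs (0.813% and 0.939%). The part of these cells in the cell cycle values was not tested.

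**Figure D4:**
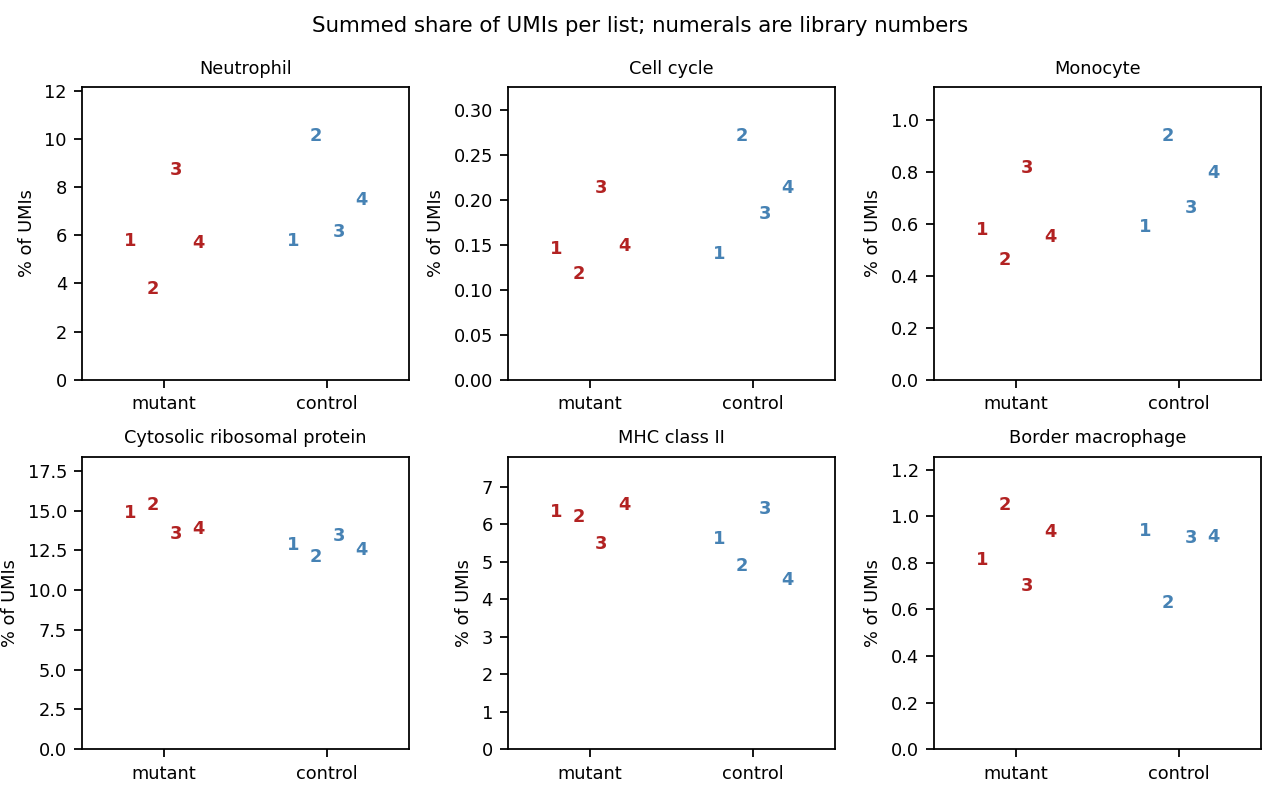
Percent of UMIs taken by 6 gene lists in each donor leptomeningeal library, mutant (red) left of control (blue), with the library number as the point and axes from 0. Ribosomal shares do not overlap between genotypes, while mutant 3 and control 2 are highest for the neutrophil, cell cycle and monocyte lists.

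Of the blood cell lists, 18 of 20 monocyte genes had a fold below 0 (median -0.28), with 3 at an unadjusted p under 0.05. Over all 12327 genes tested, 6785 had a fold below 0. At an unadjusted p under 0.05 in edgeR, 2.1% of all genes were higher and 2.74% lower. Plac8, a gene of Ly6c-high monocytes, measured 236 ± 56.1 CPM in mutant and 354 ± 52.4 CPM in control cells (unadjusted p = 0.00856, adjusted p = 1 in edgeR). The median neutrophil fold was -0.22, and 0 of 25 had an unadjusted p under 0.05. For dendritic cells the median fold was 0.19, with 12 genes above and 8 below 0. Of these 20 genes, 4 were at an unadjusted p under 0.05, all higher. Among those 4 was Cd209a at 241 ± 44.5 CPM in mutant and 191 ± 39.0 CPM in control cells. Libraries of the 2 genotypes overlapped for every gene of the list. Its share of UMIs also overlapped, at 0.121% to 0.133% in mutant and 0.116% to 0.133% in control libraries. Of 7 tested mast cell and basophil genes all had a fold below 0, with 4 at an unadjusted p under 0.05, and the list took 0.00778% to 0.0178% of UMIs in mutant and 0.00868% to 0.0255% in control libraries, which overlapped. Cpa3, the mast cell carboxypeptidase, measured 1.63, 0, 0 and 0 CPM in mutant and 1.02, 24.6, 8.32 and 9.48 CPM in control libraries (unadjusted p = 0.00985, adjusted p = 1). Control library 1 resembled the mutant libraries for this gene. None of these lists had a member that passed.

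Antigen presentation genes of class II had a positive fold in 12 of 13 cases (median 0.19), beside 5523 of all 12327 genes. Their UMIs took 5.47% to 6.51% in mutant and 4.51% to 6.42% in control libraries, which overlapped. Cd74, the invariant chain, had a log2 fold of 0.26 ± 0.17 and H2-Aa one of 0.19 ± 0.23 (unadjusted p = 0.127 and 0.433). Of 23 tested inflammatory cytokine and inflammasome genes none passed. Il12b, a subunit of interleukin-12 and interleukin-23, measured 14.7, 4.83, 5.17 and 5.87 CPM in mutant and 1.02, 0.767, 1.11 and 1.24 CPM in control libraries (log2 fold 2.82 ± 0.72, adjusted p = 0.275 in edgeR). The groups did not overlap for Il12b, and mutant library 1 was far above the others. Every control value of Il12b was near or below the level of 3 UMIs, so its fold is uncertain. Il1b measured 865 ± 151 CPM in mutant and 744 ± 92.1 CPM in control cells, Tnf 110 ± 24.0 and 118 ± 15.9 CPM, and Nlrp3 121 ± 28.5 and 123 ± 21.3 CPM (unadjusted p = 0.223, 0.540 and 0.936). Type I interferon response genes had a median of 0.07 over 44 members, and 0 passed.

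Genes of DNA methylation showed no call among 29 tested, with a median of -0.04. Dnmt1, the maintenance methyltransferase, measured 25.7 ± 6.54 CPM in mutant and 31.0 ± 5.91 CPM in control cells, and Tet2, which oxidises methylcytosine, 23.5 ± 2.57 and 27.7 ± 3.17 CPM (unadjusted p = 0.182 and 0.209). Uhrf1, the partner that brings Dnmt1 to replicated DNA, measured 10.8 ± 6.39 and 17.5 ± 6.13 CPM (unadjusted p = 0.0409, adjusted p = 1). Of 29 tested genes of cholesterol synthesis and efflux 0 passed, 13 had a fold above and 16 below 0, and the list took 2.93% to 3.97% of UMIs in mutant and 2.62% to 4.38% in control libraries, which overlapped. Of 22 tested disease-associated microglia genes 0 passed, with 14 above and 8 below 0. The smallest p in the second of these lists was that of Lpl, the lipoprotein lipase, which measured 21.5 ± 1.59 CPM in mutant and 35.2 ± 7.18 CPM in control cells, and in the cholesterol list that of Srebf1, a regulator of lipid synthesis, at 58.4 ± 3.98 and 75.2 ± 7.27 CPM (unadjusted p = 0.00544 and 0.0131, adjusted p = 1 for both in edgeR). Over the 81 nuclear-encoded members of the respiratory chain the median fold was 0.001, with 0 passing.

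**Figure D5:**
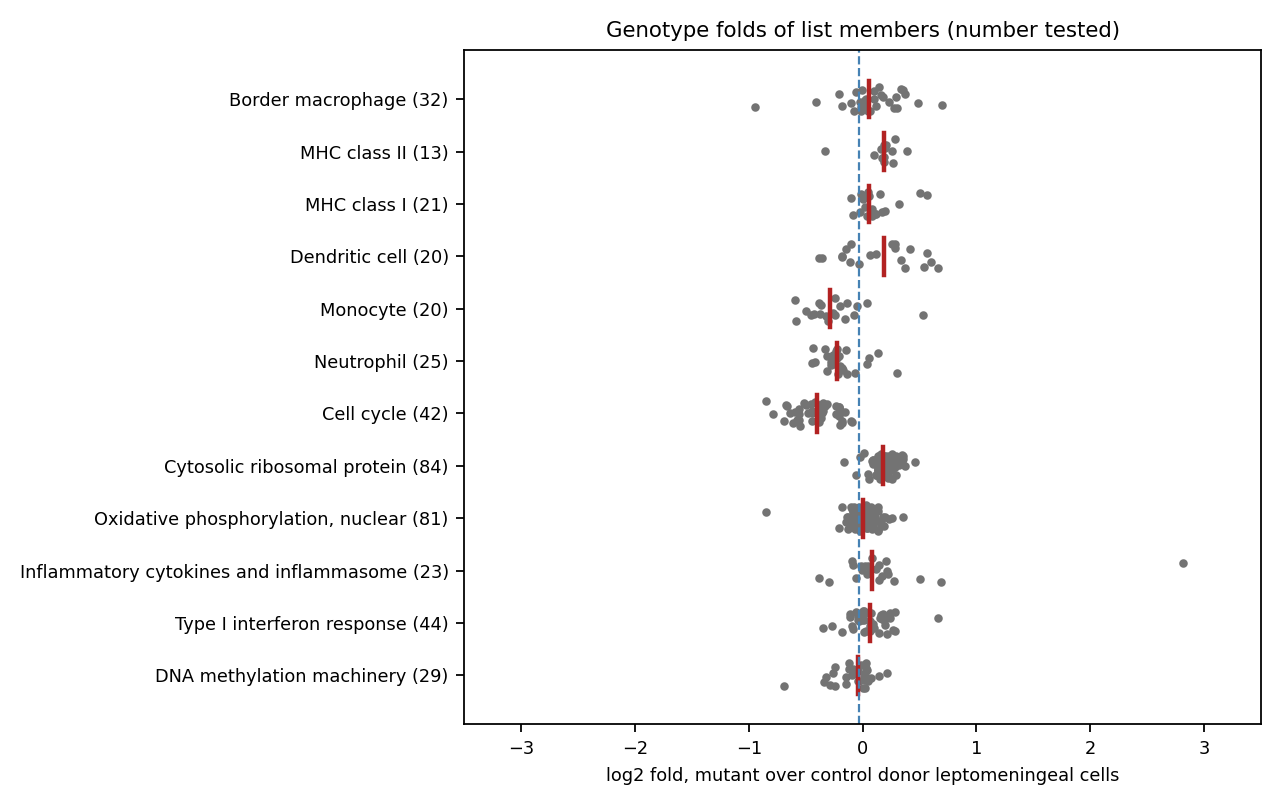
Log2 fold of mutant over control donor leptomeningeal cells for the members of 12 gene lists (grey points, number tested in brackets), with each list's median (red bar) and the median of all genes tested (dashed blue line). All cell cycle genes lie below 0, most ribosomal protein genes above 0, and Il12b, with few UMIs in control libraries, is the point near 2.82.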

How the data were processed

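Per the labels' protocols, sorted cells were lysed, polyadenylated RNA was captured and MARS-seq libraries were made. The authors deposited UMI counts per gene, on mm10 per the submitters' processing notes, beside normalized signal (counts divided by size factors) and rlog log2 values, per the file headers. No source used here names an aligner. Only the counts were used. Genes were kept by edgeR's filterByExpr over the 8 groups, and 12327 of 14617 were tested with edgeR 4.0.16 (TMM, robust quasi-likelihood test, all 28 libraries, Benjamini-Hochberg threshold 0.05). CPM used TMM-scaled totals, and list shares plain totals. SE is the log2 fold over the root of F. DESeq2 1.42.0 and limma 3.58.1 (voom) were alternatives, and the test was tried on simulated data. GENCODE M21 held 14370 of the symbols.

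The libraries, the 41 gene lists and the rule for named genes were chosen with earlier results of these data known. The rule took all genes that passed, 10 per direction among the rest (smallest p, at least 10 CPM, no overlap), up to 4 per list, a fixed set of markers, neighbours within 1 Mb and family members; a selection is printed. Low counts limit precision, and limits of 3 UMIs cover counting error only.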

Additional observations from a re-analysis of the deposited data

Results flagged for a closer look

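The Spint1 fold between mutant and control chimeras differed between donor and host leptomeningeal cells, with a difference of log2 folds of 3.91 (edgeR, adjusted p = 1.75e-06, 4 mutant and 4 control donor libraries, 2 and 2 host libraries). Host cells carry neither donor allele. Their lower Spint1 level in mutant chimeras did not pass by itself but enlarges this difference.

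In 182 groups of 4 libraries examined, 7 held a library far from the other 3, where chance flags about 1 in 20. H2-Q6 was at 176 CPM in control library 4, against 199 to 202 in the other controls. Hpgd was at 142 CPM in control library 1, against 120 to 122. Lyve1, a border macrophage marker, was at 130 CPM in mutant library 3, against 234 to 254 in the other mutant libraries. The border macrophage list took 0.628% of UMIs in control library 2, against 0.907% to 0.939%, and the endothelial list 0.0402% there, against 0.0466% to 0.0478%. The T and NK cell list took 0.0827% in mutant library 1, against 0.0528% to 0.0567%, and p53 targets 0.122% in mutant library 3, against 0.138% to 0.140%.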

How the results depend on the processing

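The count of 6 genes was 5 to 8 under DESeq2's size factors, no low-count filter, DESeq2, the 8 libraries alone, a neutrophil covariate and (chosen after seeing the data) without mutant 2 and control 2, where Slc15a2 had an adjusted p of 0.325. It was 11 with limma voom, which kept all 6, and 4 to 7 leaving out each library; 4 to 6 of the 6 then passed. Commd10, Spint1, Eps8l1 and Apobec3 passed in every one of these fits, and no fold changed sign. Genes whose fold differed between leptomeningeal cells and microglia numbered 2 with DESeq2, 1 with voom, and 0 to 149 leaving out each library, with 149 without control donor microglia library 2. Those differing between donor and host numbered 5 with DESeq2, 2 with voom, 2 with the groups alone and 1 to 5 leaving out each library (5 without control host library 1, 3 without control donor library 1, 2 without mutant host library 1); a host group left with 1 library is assumed to vary like the others. The causes were not tested.

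The deviations of same-numbered libraries from their group means correlated at -0.18 to 0.09. A mutant and a control library cannot share an animal, and the 2 libraries of a host group mirror each other. Those pairs therefore cannot show pairing. Between donor leptomeningeal cells and donor microglia of the same genotype, same-numbered libraries correlated at -0.11 to 0.09 and others at -0.14 to 0.16. The labels do not say whether a number marks the same animal, so whether the numbers pair libraries is unknown, and they were not treated as pairs. With the replicate number as a block, 8 genes were called between genotypes, 6 of them as before, 1 between compartments and 1 between donor and host; a block by genotype and number gave 2 between compartments and 1 between donor and host.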
